A study of Lathyrus oleraceus with 16 samples.

Results

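Pea plants stop making flowers while their fruits ripen, and cutting those fruits away starts the shoot tip again. The comparison described here is between Reactivated apices, harvested 24 h after the removal of every flower and fruit from arrested plants, and Arrested apices, harvested just as the plants entered proliferative arrest (called GPA in the table's headers). It was chosen by the sample labels alone and holds 8 of the 16 libraries of the series, 4 in each group. The other 8 libraries serve for reference, and they also enter the shared fit with its filter, scaling and estimate of spread. Of these, 4 are Pruned, active apices of plants pruned again and again so that they never sensed seeds. The Pruned apices were taken on the day of the Arrested samples. The remaining 4 are Proliferative, active apices of young plants with a first flower bud, before any flower opened. All plants were wild-type Pisum sativum (Lathyrus oleraceus) of the line Cameor, grown hydroponically in vermiculite in a greenhouse under 16 h of light at 21.5 °C and 8 h of darkness at 15 °C.

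In plants that flower once and die, the shoot apical meristem is a small dome of dividing cells that keeps producing flowers until developing seeds bring it to a halt. The halted meristem is not dead: it resembles a dormant bud and can resume growth when the fruits are taken away. In Arabidopsis, the transcription factor FRUITFULL promotes this arrest by repressing APETALA2 and related genes that keep the meristem active, and cytokinin, auxin and abscisic acid are hormones that have been tied to it. The present contrast covers the way out of arrest, 1 day after the fruits were removed.

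A response to the cutting itself, a difference of a day in harvest and the renewed activity of the meristem cannot be told apart, since of these 2 groups only the Reactivated plants had been cut. The apices were dissected by eye, so remnants of young leaf and bud may be present. The labels call the 4 samples of a group biological replicates but do not say how many plants were pooled in each. In such bulk samples, fewer cells of a type and less RNA per cell cannot be told apart. Total counts ran from 17690746 to 22463721 in the Reactivated libraries and from 16264221 to 24435174 in the Arrested ones. The gene IDs begin with Psat, and 0 of 48559 could be tied to a gene of the RefSeq table for pea, so genes are described by their levels and behaviour, without names or functions. For the same reason, the lists for cell division, hormones, dormancy and flowering, and the markers of leaf and floral organs, were not run.

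Within 24 h of fruit removal the apex had changed most of its expressed genes. Of 23979 genes tested, 8695 were higher in Reactivated than in Arrested, 36.3% of those tested, and 8580 were lower, 35.8%, which together made 72.0% called (edgeR quasi-likelihood test, Benjamini-Hochberg adjusted p under 0.05). On the log2 scale the median rise was 1.57, or 2.97-fold, and the median fall was 1.48 in size, or 2.79-fold, against median standard errors of 0.19 and 0.23. The middle 50% of sizes ran from 0.95 to 2.47 for rises and from 0.92 to 2.46 for falls. The sizes were thus closely alike in both directions on this scale. These values use TMM factors, which set the scale so that genes are on balance unchanged. With library totals the median of all genes lay at -0.58 in place of -0.006 on the log2 scale, and the split became 5952 higher and 11868 lower. The same 8695 rises then had a median of 0.99 and the same 8580 falls one of -2.06, so the sizes were no longer alike.

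Falls held their direction under both scalings and many rises did not pass under the second. Library totals moved the median of all genes down, from -0.006 to -0.58 on the log2 scale, which favours falls. That the falls held is therefore no test of them. All 8580 falls were also called lower with library totals. Of the 8695 rises, 5952 were also called higher, 2648 had no call and 95 were called lower on that scale. Below, "higher" and "lower" refer to the TMM scale, and the scale of library totals is given where it alters a statement.

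The change was far larger than the spread between replicates. In 16463 genes, 68.7% of those tested, the 4 Reactivated values lay entirely above or below the 4 Arrested values, with levels given as normalised CPM, counts scaled to the library total times its TMM factor. Among the called genes this held for 8036 rises and 7948 falls. With levels scaled to library totals it held for 5483 of the same rises and 8485 of the same falls. In 13566 genes with a mean of 10 normalised CPM or more, the median SD between replicates was 0.20 in Reactivated and 0.16 in Arrested on the log2 scale, and the median distance between the group means was 1.04. Libraries correlated across genes at 0.956 to 0.981 within Reactivated, at 0.965 to 0.977 within Arrested, and at 0.717 to 0.770 between the groups; genes are not independent replicates.

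A single axis separated the groups. In a principal component analysis of the 8 libraries, the leading component held 85.0% of the variance, with Reactivated at 136.4 to 148.5 and Arrested at -153.3 to -129.4. The second held 5.12% and spread the replicates within both groups. On it Reactivated 2 stood at -67.3 and Reactivated 1, 4 and 3 at 0.1, 23.3 and 48.1, while Arrested 1 to 4 stood at -38.0, 0.1, 1.1 and 32.6. Leaving out Reactivated 2 gave 8305 rises and 8614 falls.

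Many changes were large enough to exceed a 2-fold threshold by test. With edgeR's glmTreat, which asks whether a change is greater than 2-fold, 4942 genes were higher, 20.6% of those tested, and 4464 were lower, 18.6% (Benjamini-Hochberg adjusted p under 0.05). With library totals these counts were 3120 and 7213. By estimated size alone, 1393 of the rises and 1420 of the falls were over 8-fold, and 269 and 329 were over 32-fold, with 93 rises and 58 falls that had 0 counts in a group set to a bound of 3 counts over that group. At the other end, 839 rises and 823 falls were smaller than 1.5-fold.

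The 6704 genes without a call, 27.96% of those tested, were more weakly expressed at the median. Their median level was 5.60 normalised CPM over the 8 libraries, against 17.4 for called genes, and their median standard error was 0.30 on the log2 scale. For 3622 of them the 95% interval of the change lay within 2-fold in either direction. For the remainder the interval reached beyond 2-fold. These intervals belong to the TMM scale. On it the 6704 genes had a median change of -0.02 on the log2 scale, against -0.59 with library totals.

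**Figure D1:**
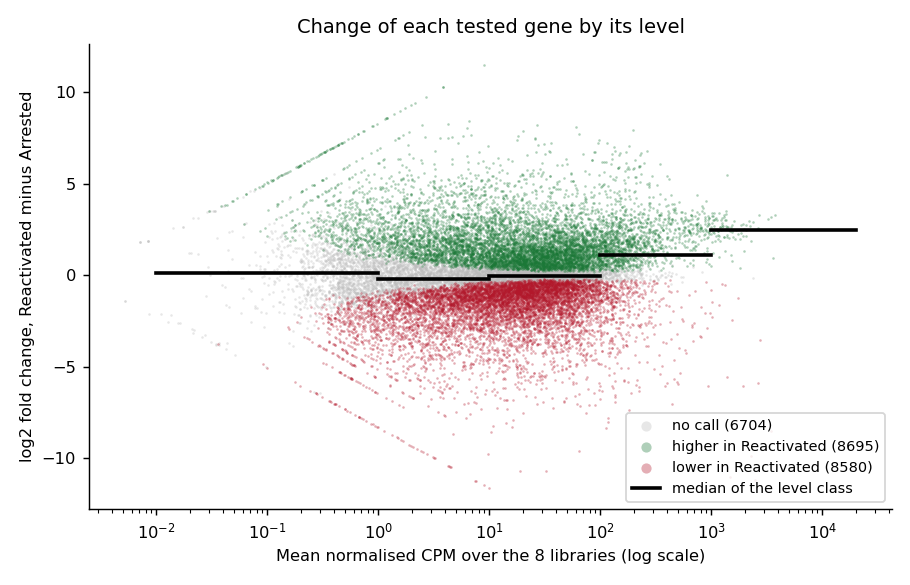
Change between Arrested and Reactivated (log2 fold change, vertical axis) of each tested gene against its mean level over the 8 libraries (normalised CPM, log scale), coloured by call; black lines are medians of level classes, which rise from near 0 below 100 CPM to 2.46 above 1000 CPM. Straight rays at low levels are genes with very few counts in 1 group, whose fitted change depends on the prior count.

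Direction varied with how strongly a gene was expressed. The level classes here were formed on the TMM scale from the 8 compared libraries, so a gene's change also affects its class. Among 101 genes at 1000 normalised CPM or more over the 8 libraries, 85 were higher in Reactivated and 15 lower, a call rate of 99.01%. Among 1963 genes at 100 to 1000 CPM, 1267 were higher and 465 lower. In the 11502 genes at 10 to 100 CPM the directions were nearly balanced, with 4401 higher and 4668 lower, and in the 7776 genes at 1 to 10 CPM falls were more frequent, with 2371 against 2917. Below 1 CPM, 571 of 2637 genes were higher and 515 lower. The medians of all genes in these classes, from the strongest to the weakest, were 2.46, 1.11, -0.06, -0.20 and 0.10 on the log2 scale. With library totals they were 1.88, 0.53, -0.63, -0.77 and -0.48 in the same classes. The preponderance of rises above 100 CPM was thus also seen with changes on that scale, though the classes still used TMM.

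The share of rises also followed the level when genes were sorted by their level in the 8 Pruned and Proliferative libraries. The contrast does not compare these libraries, though they entered the fit. Of 70 genes at 1000 CPM or more in never-arrested apices, 62 (88.6%) were higher in Reactivated than in Arrested and 6 lower. Of 1811 genes at 100 to 1000 CPM, 1329 (73.4%) were higher and 245 (13.5%) lower. At 10 to 100 CPM, 42.3% were higher and 35.2% lower, and at 1 to 10 CPM 26.1% were higher and 40.3% lower. The medians of these 4 classes, from the highest level to the lowest, were 2.27, 1.43, 0.12 and -0.31 on the log2 scale, and 1.70, 0.85, -0.45 and -0.89 with library totals. Of 2630 genes under 1 CPM in never-arrested apices, 381 (14.5%) were higher and 1072 (40.8%) lower. In 1296 of these 2630 the filter on low counts was passed only with the help of Arrested or Reactivated libraries, against 47 of 8097 genes at 1 to 10 CPM and 0 above, so the calls of that lowest class were conditioned by the filter and are given as values alone.

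**Figure D2:**
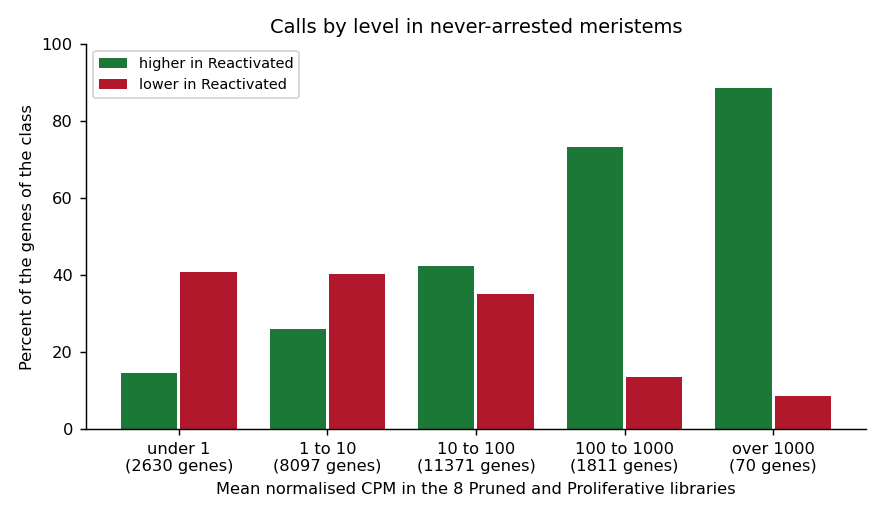
Percent of genes called higher (green) or lower (red) in Reactivated than in Arrested, by the mean level of the gene in the 8 Pruned and Proliferative libraries (normalised CPM). The share of rises climbs from 26.1% at 1 to 10 CPM to 88.6% above 1000 CPM, and the share of falls drops from 40.3% to 8.57%; the class below 1 CPM is conditioned by the filter on low counts.

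Reads in the reactivated apex were gathered in fewer genes. The smallest number of genes that together held 50% of a library's counts was 727, 927, 658 and 722 in Reactivated 1 to 4 and 1859, 1805, 1724 and 1618 in Arrested 1 to 4. No Reactivated library overlapped the Arrested range. The means were 758 ± 117 and 1752 ± 105 (SD, n = 4), a difference of -993 genes (two-sided exact permutation test, p = 0.0286, the smallest that 4 against 4 allow). For 90% of the counts, 7286 ± 233 genes were needed in Reactivated and 9576 ± 214 in Arrested (n = 4 and SD; p = 0.0286 by the same exact permutation test). This measure uses each library's own ranking and does not depend on scaling between libraries.

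At 50% of the counts, both states lay outside the range of apices that had never arrested, on opposite sides. Pruned libraries needed 1142 to 1593 genes and Proliferative libraries 1154 to 1567 to reach 50% of the counts, so Arrested libraries stood above and Reactivated libraries below all 8. Each of the 5 comparisons made, Reactivated against the other 3 groups and the 2 never-arrested groups against Arrested, gave an exact permutation p of 0.0286, and 0.0286 after Benjamini-Hochberg adjustment over the 5. The mean difference was -654 genes for Reactivated minus Pruned and -339 for Pruned minus Arrested. At 90% of the counts only Reactivated stood apart, at 7060 to 7613 genes. Arrested libraries, at 9302 to 9789, then overlapped Pruned, at 8659 to 9354, and Proliferative, at 8680 to 9539.

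The gathering did not extend to the very top of the ranking. The 10 most abundant genes of a library held less in Reactivated, 3.85% ± 0.22 of the counts against 4.85% ± 0.46 in Arrested. The leading 100 held more, 19.5% ± 1.54 against 14.7% ± 0.84, and the leading 1000 held 54.8% ± 2.36 against 39.8% ± 1.25 (SD, n = 4; exact permutation p = 0.0286 for each). The most abundant genes were largely other genes: of the 100 highest by mean share of counts, 26 were common to both groups, and of the 1000 highest, 418 were. In the 100 highest of Reactivated, 99 were called higher and 0 lower. In the 100 highest of Arrested, 62 were called lower and 32 higher. Picking genes for a high share in 1 group favours that direction, and over all genes tested 36.3% were higher and 35.8% lower.

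**Figure D3:**
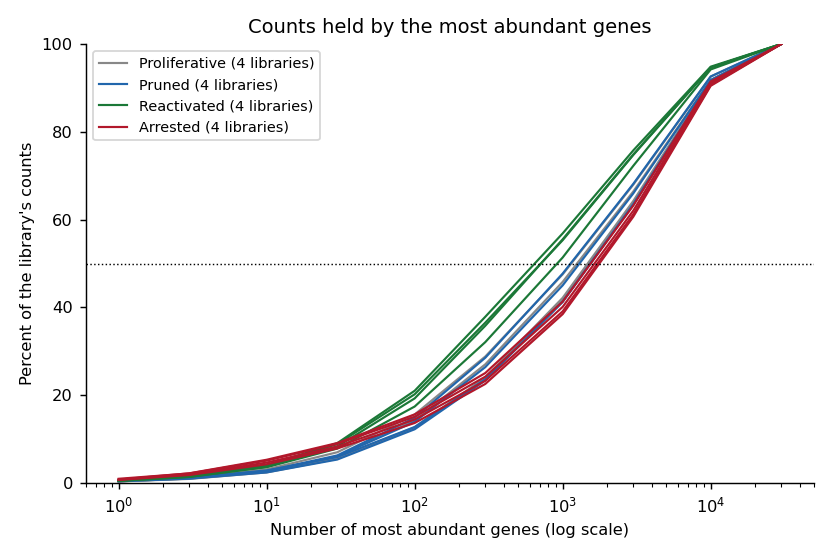
Percent of each library's counts held by its most abundant genes, against the number of genes (log scale), with 1 line per library; the dotted line marks 50%. The 4 Reactivated lines (green) reach 50% at 658 to 927 genes, the 4 Arrested lines (red) at 1618 to 1859, and the Pruned (blue) and Proliferative (grey) lines between them.

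Counts moved from many genes into fewer. Summed over genes, the increases in mean share from Arrested to Reactivated came to 46.5% of all counts, and the decreases to the same. The gain was spread over 11158 genes, of which 240 accounted for 50% of it and 1910 for 90%. The loss was spread over 18688 genes, and 766 and 5661 were needed for the same portions. The 10 genes of largest gain held 3.91%, 3.40%, 3.98% and 3.58% of the counts in Reactivated 1 to 4 and 0.729%, 0.680%, 0.677% and 0.761% in Arrested 1 to 4. The 10 genes of largest loss held 0.0831%, 0.0778%, 0.103% and 0.102% in Reactivated 1 to 4 and 4.10%, 4.60%, 4.99% and 5.32% in Arrested 1 to 4. All 10 gainers and all 10 losers passed the edgeR test, as did 100 and 99 of the 100 largest gains and losses. These genes were picked for their change on the same libraries, so their shares describe it and do not test it.

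In the libraries that took no part in picking them, the large gainers stood between the groups. Genes picked for their extremes in 2 groups tend to place other libraries there. The 10 genes of largest gain held 1.48% of the counts on average in Pruned and 1.57% in Proliferative, against 0.712% in Arrested and 3.72% in Reactivated. The 100 genes of largest gain held 8.95% and 9.38% in Pruned and Proliferative, against 4.44% in Arrested and 18.9% in Reactivated. The 100 genes of largest loss held 2.73% in Pruned and 3.51% in Proliferative, against 13.2% in Arrested and 1.45% in Reactivated.

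The called genes as a whole made up most of the RNA. The 8695 rises took 78.4%, 76.1%, 78.9% and 78.7% of the counts in Reactivated 1 to 4 and 33.1%, 31.7%, 30.8% and 32.2% in Arrested 1 to 4. The 8580 falls took 10.97%, 11.8%, 10.85% and 10.94% in Reactivated and 50.1%, 52.1%, 53.3% and 52.04% in Arrested. These sums follow from how the genes were sorted. Pruned libraries, which the sorting did not compare but the shared fit included, gave 65.6% ± 2.04 for the rises and 19.4% ± 1.04 for the falls. Proliferative libraries gave 64.3% ± 0.71 and 20.9% ± 0.93 (SD, n = 4). The 8 never-arrested libraries lay between the Arrested and the Reactivated ones in both sums. Genes sorted for a difference between 2 groups tend to place other groups between them, so this place was not tested. The 6704 genes without a call held 10.2% to 11.98% of the counts in Reactivated and 15.7% to 16.8% in Arrested.

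**Figure D4:**
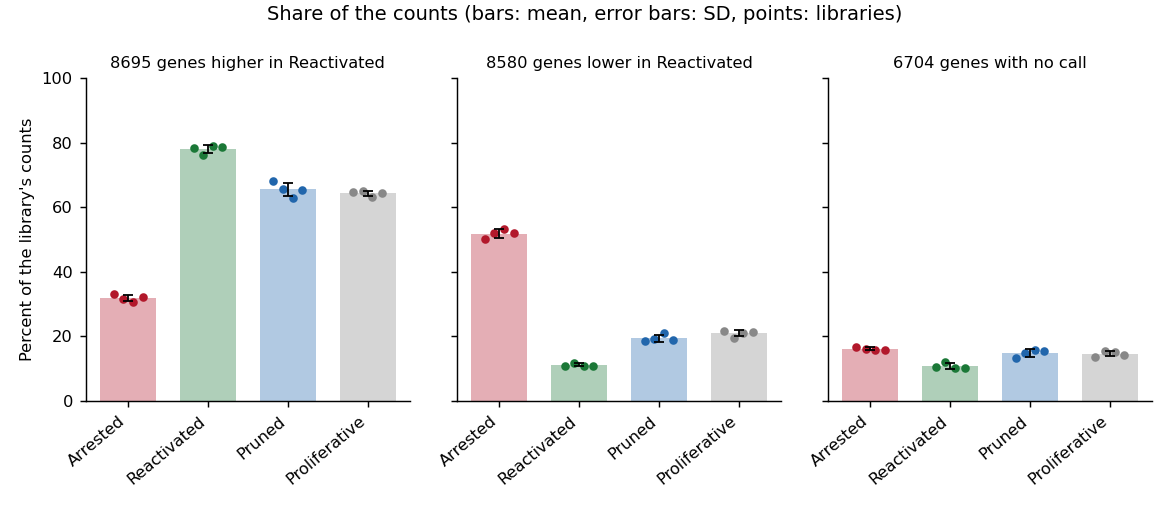
Percent of each library's counts in the genes called higher, called lower or not called between Reactivated and Arrested, for all 4 groups (points: libraries; bars: group means; error bars: SD, n = 4). In the rises the Pruned and Proliferative libraries, at 63.05% to 68.05%, lie between Arrested, at most 33.1%, and Reactivated, at least 76.1%.

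The called genes were also followed in the 2 never-arrested groups. The comparisons set side by side here share libraries with the one that chose the genes, so they are not independent. The 1393 rises of over 8-fold had a median of 3.86 on the log2 scale against Arrested, with genes at 0 counts in a group set to their bounds as before. Relative to Arrested they stood at a median of 3.95 in Pruned and 3.80 in Proliferative, and Reactivated exceeded Pruned by a median of 0.12. For all 8695 rises the medians were 1.57 for Reactivated, 1.22 for Pruned and 1.14 for Proliferative, and Reactivated exceeded Pruned by 0.28. The direction between Reactivated and the never-arrested groups depended on the scaling: with library totals Reactivated minus Pruned had a median of -0.25 for the rises of over 8-fold and -0.090 for all rises, where all genes together had a median of -0.45. The 1420 falls of over 8-fold had medians of -3.95 in Reactivated, -3.24 in Pruned and -2.55 in Proliferative, and lay below Pruned by a median of -0.80, or -1.15 with library totals. For all 23979 genes the medians were -0.006 for Reactivated, 0.10 for Pruned and 0.07 for Proliferative, each against Arrested, and -0.08 for Reactivated against Pruned. Pruned and Proliferative differed from each other by a median of 0.06 for the rises of over 8-fold and by -0.60, with Pruned lower, for the falls of over 8-fold.

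Few genes passed between silence and clear expression. A gene was taken as silent where the 4 libraries of a group summed to at most 3 counts, and as on where each of them reached 1 normalised CPM. By this rule 33 genes were switched on after fruit removal and 63 were switched off. The levels were modest: the genes switched on had a median of 3.13 normalised CPM in Reactivated, with 2 over 10 CPM and a highest value of 17.8. The genes switched off had a median of 3.97 in Arrested, with 9 over 10 CPM and a highest value of 64.2. Among the genes switched on, 13 had 0 counts in all 4 Arrested libraries, and among those switched off, 26 had 0 counts in all 4 Reactivated libraries.

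In the never-arrested libraries, which the rule did not use, many of these genes were neither silent nor on. Of the 33 switched on, 15 were on in Pruned, 18 in Proliferative and 13 in both, and 0 were silent in either group. Between the limits lay 18 in Pruned and 15 in Proliferative. Of the 63 switched off, 1 was on in Pruned and 2 in Proliferative. Silent were 26 in Pruned, 14 in Proliferative and 11 in both, and 36 and 47 lay between the limits in Pruned and Proliferative. The shares of all tested genes on or silent in these groups are not given here, so these counts have no background. Summed over the genes switched on, levels were 115, 157, 120.5 and 179.6 normalised CPM in Reactivated 1 to 4, with 184, 225, 124 and 194 in Pruned 1 to 4 and 131.4 to 137.4 in Proliferative. The ranges of Reactivated and Pruned overlapped. Summed over the genes switched off, levels were 405 to 510 normalised CPM in Arrested, 6.57 to 17.2 in Pruned and 13.6 to 58.9 in Proliferative. The number of genes switched on was 55 without Arrested 1 and 57 without Arrested 2, and the number switched off was 97 without Reactivated 4, since both limits are easier to meet in fewer libraries.

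A change in the number of genes detected was not shown at a limit of 1 count, and one was at a limit of 5. With every library thinned to 16264221 counts, the smallest total of the 8, at least 1 count was expected in 25908, 26144, 25624 and 25539 genes in Reactivated 1 to 4 and in 26399, 25682, 25691 and 25498 genes in Arrested 1 to 4. The groups overlapped, with a difference of -14 genes (exact permutation p = 0.943). At 5 or more counts the groups separated: 22649 ± 197 genes were detected in Reactivated and 23657 ± 225 in Arrested (SD, n = 4), a difference of -1008 (exact permutation p = 0.0286).

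The 4 single genes, the largest rise and fall by fold and by difference in normalised CPM, show what lay behind these sums. The count of genes they were taken from is 6502 rises and 6227 falls, those that were called, had 10 or more counts in each of the 8 libraries, did not overlap between the groups and kept their call when any 1 library was left out. These IDs carry no names, and their values may include reads of an overlapping or antisense neighbour. The 4 genes were picked for extreme changes between Reactivated and Arrested. Their comparisons with Pruned and Proliferative reuse those libraries, so the p-values given for them are not independent of that choice.

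Psat2g137440 had the largest rise by fold. It stood at 1.51, 1.502, 1.19 and 2.29 normalised CPM in Arrested 1 to 4 and at 269, 351.5, 363 and 589 in Reactivated 1 to 4. Nearly absent in every arrested apex, it was strongly expressed in every reactivated one. The log2 fold change was 7.93 (SE 0.31, edgeR adjusted p = 3.51e-12), a 244-fold rise. Pruned and Proliferative stood higher still on average, at 547 ± 126 and 533 ± 69.5 normalised CPM (SD, n = 4), and the log2 differences of Reactivated from them, -0.48 (edgeR adjusted p = 0.0961) and -0.44 (edgeR adjusted p = 0.122), did not pass the test. With library totals these differences were -0.84 and -0.81 and both passed (edgeR adjusted p = 0.00299 and 0.00373). Arrested stood far below the other 3 groups on either scale, and whether Reactivated stood below the never-arrested groups depended on the scaling.

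Psat2g033920 had the largest rise in normalised CPM. It stood at 709.6, 644, 645 and 736 in Arrested 1 to 4 and at 7137, 5897, 7567 and 6367 in Reactivated 1 to 4. Already well expressed at arrest, it rose 9.86-fold, which is 3.30 on the log2 scale (SE 0.12; adjusted p = 2.06e-12 in edgeR). Pruned and Proliferative lay between, at 1850 ± 232 and 1884 ± 74.8 normalised CPM (SD, n = 4). Reactivated exceeded them by 1.87 and 1.84 on the log2 scale (edgeR adjusted p = 9.27e-09 and 1.17e-08), and they did not differ from each other by the test (adjusted p = 0.960). Its level in Reactivated was thus beyond that of any never-arrested library, the highest of which reached 2113.

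Psat6g150920 had the largest fall by fold. It stood at 4704, 4780, 5306 and 4828 normalised CPM in Arrested 1 to 4 and at 1.94, 1.40, 3.21 and 2.05 in Reactivated 1 to 4. A gene among the most abundant of the arrested apex was thus nearly gone 24 h after fruit removal. The log2 fold change was -11.16 (SE 0.91, edgeR adjusted p = 1.33e-08), a 2284-fold fall. In Pruned it was at 20.1, 12.3, 12.7 and 5.20, and in Proliferative at 583, 52.4, 72.7 and 537. Reactivated was below Pruned by -2.55 on the log2 scale (edgeR adjusted p = 0.00905) and below Proliferative by -7.18 (edgeR adjusted p = 3.06e-06), and the 4 groups followed the order Reactivated, Pruned, Proliferative, Arrested, each step passing the test.

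Psat3g011320 had the largest fall in normalised CPM and ranked 4 by fold. It stood at 5878, 6649, 8397 and 6330 in Arrested 1 to 4 and at 18.9, 17.05, 18.6 and 19.6 in Reactivated 1 to 4. The reactivated values were almost the same in all 4 libraries. The log2 fold change was -8.52 (SE 0.37, edgeR adjusted p = 9.48e-12), a 367-fold fall. Pruned was at 61.9 ± 7.13 and Proliferative at 359 ± 172 normalised CPM (SD, n = 4), in the same order of groups as for Psat6g150920. Reactivated was lower than Pruned by -1.74 on the log2 scale (edgeR adjusted p = 0.000120), and Pruned was lower than Proliferative by -2.54 (edgeR adjusted p = 0.000101).

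**Figure D5:**
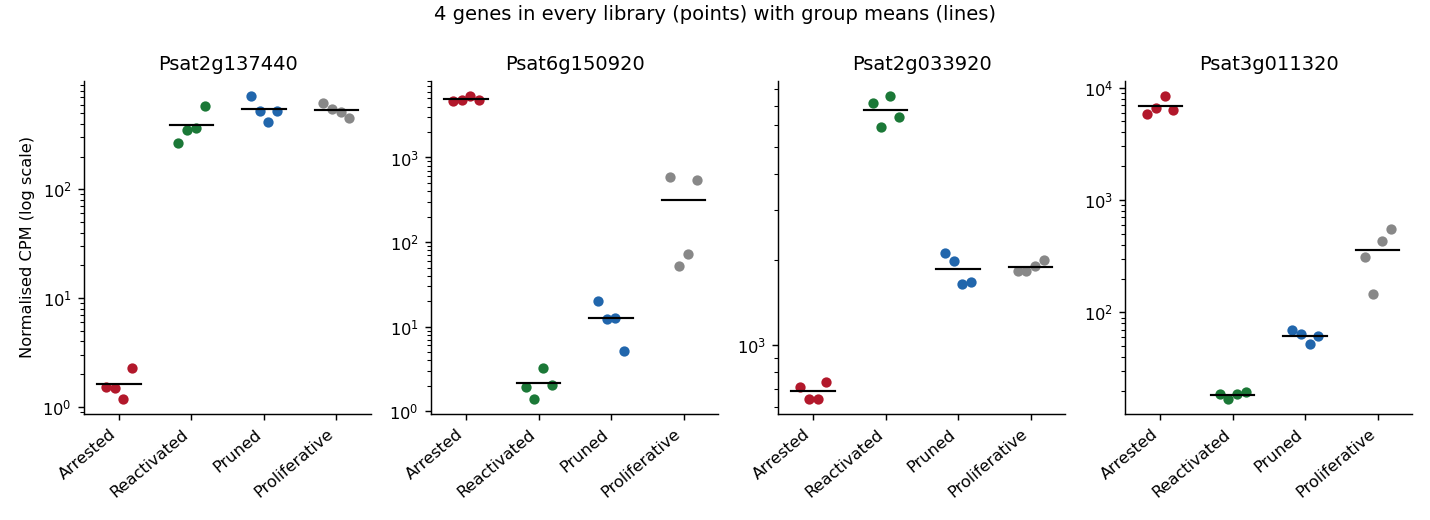
Normalised CPM (log scale, its own range in each panel) of the 4 named genes in every library of the 4 groups, with points for libraries and lines for group means. The groups Arrested and Reactivated do not overlap in any panel, which the naming rule required. Psat2g033920 in Reactivated, at 5897 to 7567, exceeds the never-arrested libraries, and Psat6g150920 and Psat3g011320 in Reactivated lie below them. The genes were picked for their change between Arrested and Reactivated.

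The share of called genes differed little between kinds of ID. IDs carry a digit from 1 to 7 or a longer scaffold-like form, and what these stand for was not given in the sources used here. The share called ran from 71.03% to 73.2% over the 7 digits and was 69.7% in the other IDs. Rises made up 34.97% to 38.5% of the tested genes over the digits and falls 34.8% to 36.8%.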

How the data were processed

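Strand-specific poly(A) RNA libraries were made from column-purified, DNase-treated RNA and read on a NovaSeq machine, per the labels. The authors deposited 1 table of raw read counts per gene for 16 libraries. The submitters' processing notes list the tools DESeq2, HTSeq, HISAT2 and cutadapt without versions or roles; the deposited table's name says that counting ignored strand, so antisense or overlapping neighbours and near-identical copies are uncertain. The build and the gene models behind the counts are not given in the sources used here.

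The main test was run with edgeR 4.0.16 under R 4.3.3 (filterByExpr by group, TMM, all 16 libraries in 1 quasi-likelihood fit with group as the only term), and DESeq2 1.42.0 served as an alternative. Standard errors of log2 fold changes were derived as the absolute change over the root of the F statistic. Values per library were compared by two-sided exact permutation tests in SciPy 1.17.1. In simulated data of 23673 genes for this contrast, 200 genes were changed, equally up and down and with no shift in scale. The fit called 52 of 100 genes changed 2-fold and 77 of 100 changed 4-fold, with 4 false calls. The real contrast called 72.0% of genes, so these rates do not measure the errors of its calls. Members, lists and tests were chosen with earlier results of these data known. The named genes are the rise and fall of largest log2 fold change, and of largest difference in mean normalised CPM, under the conditions given beside them. P-values weigh a difference between groups against the spread between these samples only.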

Additional observations from a re-analysis of the deposited data

Results flagged for a closer look

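Of 48 groups of 4 values checked, 4 held 1 library far from the other 3, where chance gives about 1 in 20. The genes lower in Reactivated took 11.8% of the counts in Reactivated 2, against 10.85% to 10.97% in the other 3. The rises of over 8-fold took 14.5% of the counts in Proliferative 1, against 13.45% to 13.5% in the other 3. The falls of over 8-fold took 1.11% of the counts in Pruned 4, against 1.49% to 1.53% in the other 3. In Proliferative 2 the genes switched off summed to 13.6 normalised CPM, while Proliferative 1, 3 and 4 lay at 53.8 to 58.9. Psat6g150920 was also lowest in Proliferative 2, at 52.4, but Proliferative 3 was close to it at 72.7. Only Reactivated 2 belongs to the comparison itself.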

How the results depend on the processing

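All 15 alternative fits kept the counts of genes higher and lower within 1.5 times, at 5952 to 8934 and 8228 to 11868. With library totals 3120 genes were more than 2-fold higher and 7213 lower. Leaving out 1 library gave 8304 to 8575 genes higher and 8228 to 8614 lower, and 7716 of the 8695 rises and 7726 of the 8580 falls were called in all 8 such fits. DESeq2 called 8862 higher and 8736 lower. The 8 compared libraries fitted alone, with 22561 genes tested, gave 8141 higher and 9127 lower. By more than 2-fold they gave 4513 higher and 4899 lower, so which direction was more frequent depended on the libraries fitted. The 4 named genes kept direction and call in all 28 results from the 7 fits that did not leave out 1 of the 8 compared libraries. These fits include the 8 compared libraries alone and a fit omitting Proliferative 3, Proliferative 4 and Pruned 2. The naming rule required the call in the fits that left out 1 of the 8. Library totals, tried against the never-arrested groups after seeing the data, turned the median of Reactivated minus Pruned to -0.090 for all rises and -0.25 for those over 8-fold, and that of Reactivated minus Proliferative to -0.039 and -0.21. Samples with the same replicate number did not deviate together (r of -0.03, -0.05, 0.06 and 0.15, with 1 of 4 best matched to its own number). With the replicate block, 8501 genes were higher and 8440 lower, and 4848 and 4402 by more than 2-fold. Genes holding 50% of the counts differed by -1049 to -957 without 1 library, where 3 against 4 cannot give an exact permutation p under 0.0571. Genes detected at equal depth differed by -128 to 180 without 1 library, reversing without Reactivated 3 (46), Reactivated 4 (74) or Arrested 1 (180), by 84 with no thinning and by -1008 at 5 or more counts. Genes switched on numbered 90 and off 174 with silence at 10 or fewer counts, 2 and 14 with on at 5 CPM, and 34 to 57 and 66 to 97 without 1 library. Apart from the refits with fewer libraries or other limits, the cause of these shifts was not tested. The 6704 genes without a call had a lower median level than called genes, 5.60 against 17.4 normalised CPM.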

Other observations

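Directions were compared between genes by the distance of their ID numbers, with no test. Among pairs of called genes with consecutive IDs, 3430 of 6370 (53.9%) had the same direction, against 2891 of 5752 (50.3%) for IDs 100 places apart. When both genes had changed over 8-fold, 150 of 220 consecutive pairs (68.2%) had the same direction, with 63.3% of 188 pairs at 2 places, 54.9% of 164 at 5, 63.3% of 150 at 10, 47.8% of 138 at 50 and 49.03% of 155 at 100. Runs were counted among 1221 rises and 1268 falls of over 8-fold, fewer than the 1393 and 1420 given above. The rises formed 10 runs of 3 or more consecutive IDs, holding 34 genes, the longest of 7. Falls of over 8-fold formed 7 runs holding 21 genes, the longest of 3. Whether consecutive IDs are neighbours on a chromosome was not given in the sources used here, and reads shared between overlapping genes could not be separated.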
